A study of Mus musculus with 19 samples.

Results

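The 27 genes described here encode receptors for the inhibitory transmitters GABA and glycine and the proteins that hold these receptors at the synapse or carry them through the cell. They comprise 16 GABA-A receptor subunits (Gabra2, Gabra3, Gabra4, Gabra5, Gabra6, Gabrb1, Gabrb2, Gabrg1, Gabrg3, Gabrd, Gabre, Gabrq, Gabrp, Gabrr1, Gabrr2 and Gabrr3), both GABA-B receptor subunits (Gabbr1 and Gabbr2), 5 glycine receptor subunits (Glra1, Glra2, Glra3, Glra4 and Glrb), gephyrin (Gphn) and 3 members of the GABARAP family (Gabarap, Gabarapl1 and Gabarapl2). They were chosen by name from 52636 genes in the table, and all 27 were found. Other subunits of these families were not analysed here.

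The cells came from the lateral hypothalamic area (LHA) of 7 mice, all male, 6 to 8 weeks old, untreated and of the genotype Agrp-IRES-Cre x Ai9. In this line Cre is made with the Agrp transcript and switches on the red reporter of Ai9, so that the fluorescent AGRP axons mark the borders of the area, and the cells picked by hand were those without fluorescence. Single cells were sorted by hand into wells of 19 plates, numbered 1 to 19 here, and their RNA was counted as unique molecular identifiers (UMIs) by a plate-based method named Smart-SCRB. All plates form a single group with the same genotype, so the comparisons below are between cell classes, made within plates.

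Of 1612 LHA wells, 1534 held at least 1000 detected genes and were kept. A well was placed in the Hcrt class where Hcrt, the gene of the arousal peptides orexin A and B, made up at least 1% of the UMIs of mouse genes, and in the Pmch class where Pmch, the gene of melanin-concentrating hormone, did so. Wells below 1% for both peptides formed the GABA class where Gad1 and Gad2, which encode the enzymes that make GABA, summed to at least 5 UMIs, and the class called other where they did not. This gave 1065 Hcrt wells, 68 Pmch wells, 327 GABA wells and 71 other wells, while 3 wells with both peptides were in no class. The gates were not sharply separated everywhere: 155 Hcrt wells and 66 Pmch wells also held at least 5 Gad1 and Gad2 UMIs, and 34 GABA wells had between 0.5% and 1% Hcrt. Of the other wells, 46 of 71 held at least 2 UMIs of Slc17a6, a vesicular glutamate transporter.

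Median depth was 45722 UMIs in the Hcrt class, 59063 in the Pmch class, 24486 in the GABA class and 24969 in the other class. ERCC spike-ins, RNA standards added to the wells, made up a median 2.72%, 1.86%, 6.24% and 5.96% of the UMIs in these classes. Plate totals ran from 1835641 to 5067927 UMIs, and no 2 LHA wells held identical counts. The 19 plates used 4 sets of 96 cell barcodes, so plates share barcodes and wells were told apart by plate and barcode together. Wells outside a gate on neuronal genes (8 pan-neuronal markers against lists of other cell types) numbered 13 in the Hcrt class, 0 in the Pmch class, 2 in the GABA class and 9 in the other class. All 4 other wells of plate 19 lay outside this gate: their summed pan-neuronal level was 195 CPM (UMIs rescaled so that every library has the same total), against 4952 to 9832 CPM in the other wells of the remaining 9 plates compared. In plate 9 the summed 11 other wells held 11439 CPM of oligodendrocyte markers and 5232 CPM of pan-neuronal genes. Of these 11 wells 1 was outside the neuronal gate, as were 4 of the 9 other wells of plate 14. The calls, levels and shares of wells of the other class are therefore given with and without plate 19.

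GABA-A receptors are chloride channels built from several subunits, usually alpha and beta subunits together with a gamma, delta, epsilon or theta subunit. The alpha and gamma subunits set how the channel responds to GABA and to benzodiazepines, and where on the membrane it sits. GABA-B receptors are G-protein-coupled and need both of their subunits: Gabbr1 binds GABA, and Gabbr2 brings Gabbr1 to the surface and couples to the G protein. Glycine receptors pair alpha subunits with Glrb, which binds gephyrin, the scaffold that clusters glycine receptors and many GABA-A receptors under the synapse. In the LHA, orexin and MCH neurons are intermingled with many GABA neurons, and GABA is a main input of all of them.

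UMIs were summed per plate and class over plates with at least 3 wells in both classes compared. Each pair of classes was fitted with edgeR's quasi-likelihood test with the plate as a block, and p-values were adjusted over all genes tested (Benjamini-Hochberg, threshold 0.05). The GABA and Hcrt classes met in 16 plates, the Pmch and Hcrt classes in 13, and the other class met the Hcrt class and the GABA class in 10 each. The Hcrt wells serve as reference in 3 of these 4 comparisons, so those 3 are not independent of each other. Levels are given in CPM, the mean ± SD over plates, and log2 fold changes with their standard errors come from the fit, which rescales the libraries by TMM. The 7 mice were spread over 19 plates without a label that ties plate to mouse, so p-values over plates measure the spread between plates and may be too small.

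Between the GABA and Hcrt classes, 16 of the 27 genes had enough UMIs to be tested, and 6 were higher and 3 lower in the GABA class. Among all 9271 genes tested, 17.2% were called higher and 21.8% lower, so calls were common in this comparison, and the 11 genes left untested were those with few UMIs. The median log2 fold change was 0.06 over the tested receptor and anchor genes and -0.04 over all genes. Between the Pmch and Hcrt classes, 13 genes were tested, and 6 were higher and 1 lower in the Pmch class. Here 13.2% of 7796 genes were called higher and 17.5% lower, and the median was 0.34 over the receptor and anchor genes and -0.12 over all genes. The calls depend on how the classes are scaled. With total UMIs as library size, the median of all genes between the GABA and Hcrt classes moved to 0.36. There 10 of the 16 tested receptor and anchor genes were called higher and 2 lower, beside 3984 and 855 of all 9271 genes. With the ERCC spike-ins as library size the median of all genes moved to -0.78, with 3 of the 16 higher and 11 lower. Over all 9271 genes, 404 were then called higher and 6477 lower, so most genes were called lower under this scaling. Between the Pmch and Hcrt classes, spike-in scaling moved the median of all genes to 0.44. Of the 13 receptor and anchor genes tested, 10 were then called higher and 1 lower, beside 3257 and 448 of all 7796 genes.

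**Figure D1:**
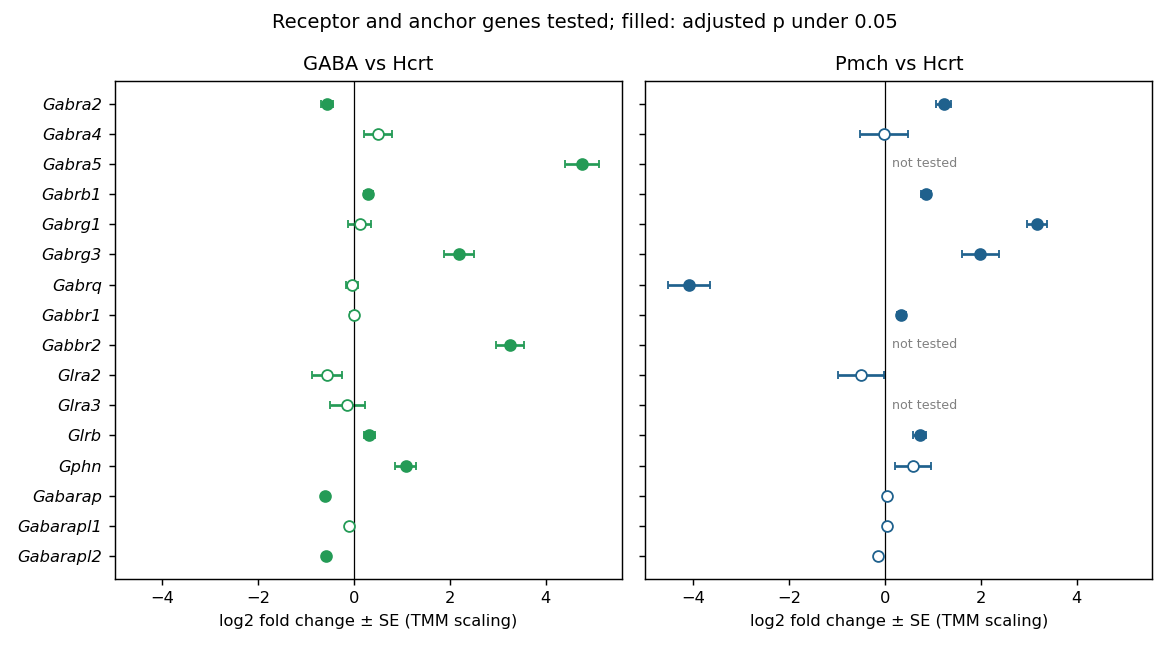
Log2 fold change ± SE (edgeR, TMM scaling) of the receptor and anchor genes tested between the GABA and Hcrt classes (left, 16 plates) and between the Pmch and Hcrt classes (right, 13 plates); filled points have an adjusted p under 0.05 and the vertical line marks no change. Gabra5 and Gabbr2 lie farthest to the right on the left side (4.75 and 3.25), and Gabrg1 and Gabrq lie at 3.17 and -4.08 on the right side.

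The make-up of the alpha family differed between the classes. In Hcrt wells Gabra2, the alpha-2 subunit found at many fast synapses, gave 85.4% of the 6615 UMIs of Gabra2 to Gabra6, and in Pmch wells it gave 93.9% of 1191. In GABA wells Gabra2 gave 48.2% of 1639 UMIs and Gabra5, an alpha subunit best known from receptors outside synapses, gave 30.4%. In the other class the shares of Gabra2 and Gabra5 were 72.1% and 14.1% of 262 UMIs. The other wells of plate 19 held 0 alpha, beta, gamma, theta and glycine alpha UMIs, so the pooled shares of these families in the other class were the same without it. UMIs are not divided by gene length, and these shares describe molecules detected, so they are compared between classes and not as amounts of protein.

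Of the receptor and anchor genes tested, Gabra5 had the largest change. Its level in the GABA class was 57.9 ± 20.7 CPM (SD, n = 16 plates), with a lowest, median and highest plate of 30.9, 56.5 and 115.9 CPM. In Hcrt wells of the same plates it was 1.86 ± 1.86 CPM, with a lowest, median and highest plate of 0, 1.32 and 6.42 CPM. The GABA class was higher in 16 of 16 plates, and the ranges did not overlap. The log2 fold change was 4.75 ± 0.35 (edgeR, adjusted p = 5.25e-16), and it lay between 4.08 and 5.14 under every alternative run. In the Pmch class Gabra5 was nearly absent, with 4 UMIs in 68 wells. Within the alpha family, the Gabra5 share was 32.8% ± 9.80 in GABA wells and 1.49% ± 1.62 in Hcrt wells of 14 plates (sign-flip permutation test over plates, adjusted p = 0.00126). Gabra5 lies on chromosome 7 at 57407672 to 57510059, minus strand (GRCm38). Its last 1000 bases overlap the gene Gm9962 on the opposite strand, and whether the counting used strand is not given in the sources used here, so reads of these 2 genes may not be told apart.

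Gabra2 moved in opposite directions in the 2 comparisons with Hcrt wells. In the Pmch class it was 247 ± 95.2 CPM (SD, n = 13 plates; lowest 63.8, median 271, highest 355), against 104.9 ± 15.0 CPM in Hcrt wells (lowest 83.3, median 102.4, highest 132). The Pmch class was higher in 11 of 13 plates, and the groups overlapped through plates 1 and 5, whose Pmch wells held 78.8 and 63.8 CPM. The log2 fold change of Gabra2 was 1.22 ± 0.17 (edgeR, adjusted p = 9.28e-07). In the GABA class Gabra2 was 89.5 ± 35.1 CPM, against 97.6 ± 16.05 CPM in Hcrt wells of the same 16 plates, and lower in 10 of them. The fit called this fall (log2 fold change -0.57 ± 0.13, edgeR, adjusted p = 3.31e-04), but with total UMIs as library size it was -0.17 and not called (adjusted p = 0.276). Its share of the alpha family also moves with Gabra5 and the remaining alpha genes, and so does not measure the level of Gabra2 itself. That share was 46.4% ± 13.7 in GABA wells and 83.6% ± 4.42 in Hcrt wells, lower in 14 of 14 plates (permutation test, adjusted p = 0.00126). In Pmch wells it was 94.8% ± 6.50, against 85.3% ± 4.38 in Hcrt wells, higher in 9 of 11 plates (permutation test, adjusted p = 0.0398). This last call was lost when any of plates 2, 3, 8, 10, 11, 13, 18 and 19 was left out, with an adjusted p of at most 0.0795.

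The remaining alpha subunits had few UMIs. Gabra4, an alpha subunit that often joins delta, was at 12.3 CPM in Hcrt wells and 21.5 CPM in GABA wells of 16 plates and at 12.7 CPM in Pmch wells of 13 plates, and it was not called in either comparison. Gabra3 was at 5.003 CPM in Hcrt wells and 11.5 CPM in GABA wells and had too few UMIs for the test. With at least 5 wells per plate and class it entered the fit and was called higher in GABA wells (log2 fold change 1.00 ± 0.39, edgeR, adjusted p = 0.0397), where 17.3% of all genes were called higher. As a share of the alpha family, Gabra3 fell from 4.01% ± 1.85 in Hcrt wells to 0.607% ± 1.39 in Pmch wells, lower in 10 of 11 plates (permutation test, adjusted p = 0.00812). The Gabra5 share fell in the same plates from 1.55% ± 1.23 to 0.179% ± 0.595 (permutation test, adjusted p = 0.0168). Both calls were lost with at least 5 wells per plate and class (adjusted p = 0.135 for Gabra3 and 0.191 for Gabra5, in 5 plates, where the smallest p is 0.0625), with the peptide gate at 0.5% (0.0547 and 0.539) and after thinning to 18000 UMIs (0.116 and 0.271). Gabra6, the alpha subunit of cerebellar granule cells, had 3, 4, 1 and 0 UMIs in the Hcrt, Pmch, GABA and other classes, and 1 UMI over all blank wells.

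**Figure D2:**
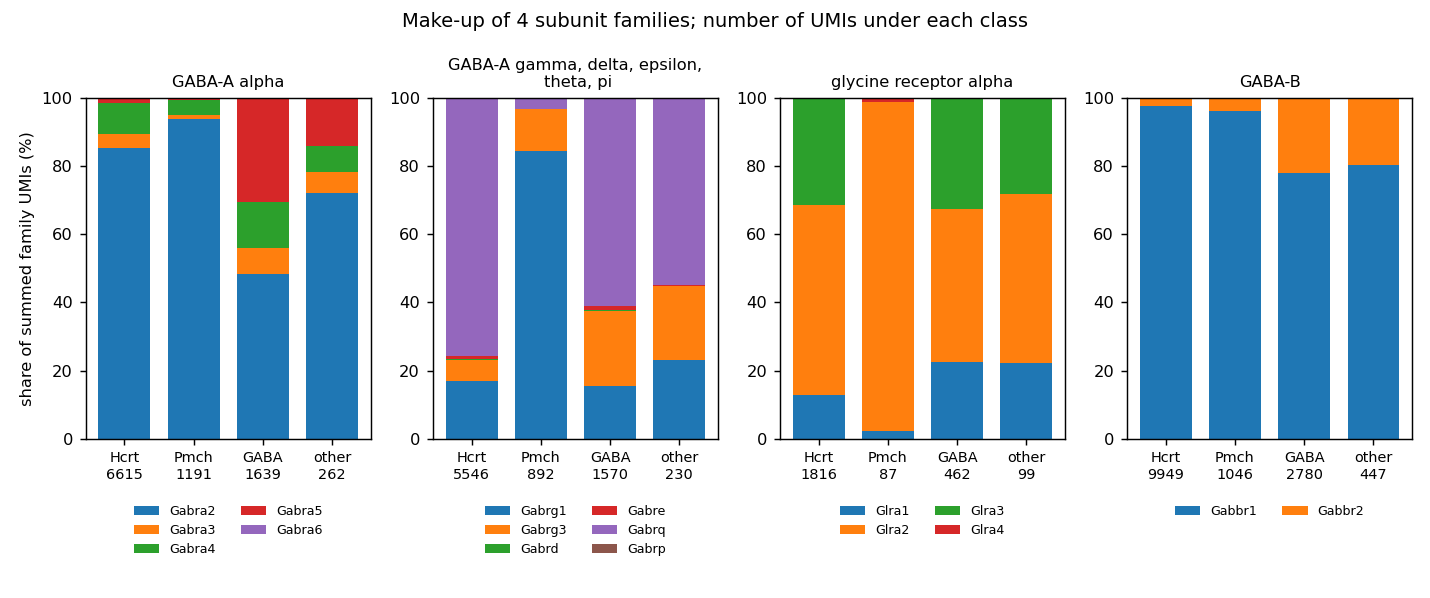
Share (%) of each gene in the summed UMIs of 4 subunit families, by class; the number under each bar is the family's UMIs in that class, pooled over all wells. Gabra5 takes 30.4% of alpha UMIs in GABA wells and 1.41% in Hcrt wells, and Gabrg1 takes 84.4% of gamma, delta, epsilon, theta and pi UMIs in Pmch wells, where Gabrq takes 75.6% in Hcrt wells.

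Among the beta subunits analysed here, which carry part of the GABA binding site, Gabrb1 gave nearly all UMIs: 99.6% of Gabrb1 and Gabrb2 in Hcrt wells, 97.1% in Pmch wells, 93.6% in GABA wells and 96.2% in other wells. In the Pmch class Gabrb1 was at 279.7 ± 68.6 CPM (lowest 154, median 289, highest 361), against 155 ± 12.8 CPM in Hcrt wells (lowest 137, median 154, highest 179.6). It was higher in 13 of 13 plates, with overlapping ranges, and the log2 fold change was 0.86 ± 0.10 (edgeR, adjusted p = 8.03e-09). In the GABA class Gabrb1 was at 268 ± 94.3 CPM, against 160.4 ± 14.4 CPM, and higher in 15 of 16 plates. The log2 fold change of 0.30 ± 0.09 (edgeR, adjusted p = 0.00741) was small, and it reversed to -0.44 with spike-in totals as library size. Gabrb2 was at 12.9 ± 13.5 CPM in GABA wells and 0.641 ± 1.00 CPM in Hcrt wells and had too few UMIs for the filter. Without the filter it was called (log2 fold change 3.77 ± 0.59, edgeR, adjusted p = 5.84e-09), where 4.08% of 36319 genes were called higher. The Gabrb1 share of the pair was 94.9% ± 5.01 in GABA wells and 99.6% ± 0.569 in Hcrt wells, lower in 12 of 15 plates (permutation test, adjusted p = 0.00543).

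The gamma and theta subunits separated the peptide classes. Gabrg1 and Gabrg3 encode gamma subunits, which form part of the benzodiazepine site, and Gabrq encodes theta, a subunit known mostly from the hypothalamus and brainstem. In Hcrt wells Gabrq gave 75.6% of the 5546 UMIs of the gamma, delta, epsilon, theta and pi genes and Gabrg1 gave 16.9%. In Pmch wells the order was turned over: Gabrg1 gave 84.4% of 892 UMIs and Gabrq gave 3.14%. In GABA wells Gabrq gave 60.8%, Gabrg3 22.2% and Gabrg1 15.4% of 1570 UMIs.

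Gabrg1 was at 172 ± 76.2 CPM in the Pmch class (SD, n = 13 plates), with a lowest, median and highest plate of 17.01, 167 and 271 CPM. Hcrt wells of those plates were at 18.3 ± 3.07 CPM (lowest 12.5, median 17.8, highest 22.9). The Pmch class was higher in 13 of 13 plates, and the overlap came from plate 5, the same plate that was lowest for Gabra2. The log2 fold change of Gabrg1 was 3.17 ± 0.20 (edgeR, adjusted p = 2.45e-16). GABA wells held 25.8 ± 14.02 CPM of Gabrg1 and Hcrt wells of the same 16 plates 17.6 ± 4.35 CPM, which the test did not call.

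Gabrq went the other way. It was at 79.2 ± 10.5 CPM in Hcrt wells (lowest 63.4, median 79.0, highest 99.0) and at 5.93 ± 12.7 CPM in Pmch wells of the same 13 plates. The lowest and the median plate of the Pmch class were at 0, and the highest, plate 4, was at 44.8 CPM, so the groups did not overlap. The log2 fold change was -4.08 ± 0.44 (edgeR, adjusted p = 1.62e-08), and it ran from -5.02 to -3.90 when each plate was left out in turn. GABA wells held 109.8 ± 42.4 CPM of Gabrq and Hcrt wells of the same plates 80.0 ± 14.4 CPM, which was not called.

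Gabrg3 was higher than in Hcrt wells in both the GABA and the Pmch class. It was at 37.5 ± 23.0 CPM in GABA wells (lowest 0, median 34.5, highest 84.3) and 6.56 ± 3.52 CPM in Hcrt wells (lowest 1.44, median 6.40, highest 14.04), higher in 15 of 16 plates with overlapping ranges. The log2 fold change was 2.19 ± 0.31 (edgeR, adjusted p = 5.21e-08). In Pmch wells Gabrg3 was at 25.6 ± 13.4 CPM (lowest 4.74, median 20.9, highest 46.4) against 6.85 ± 3.83 CPM, higher in 13 of 13 plates, with a log2 fold change of 1.99 ± 0.39 (edgeR, adjusted p = 7.48e-05). Of the UMIs of Gabrg1 and Gabrg3 alone, Gabrg1 took 37.5% ± 8.95 in GABA wells and 75.3% ± 12.6 in Hcrt wells, lower in 10 of 10 plates (permutation test, adjusted p = 0.00852). In Pmch wells that share was 86.9% ± 6.91 and in Hcrt wells 74.1% ± 11.6, higher in 10 of 12 plates (permutation test, adjusted p = 0.0385). That call was lost without any of plates 1, 2, 3, 6, 8, 10, 11, 13 and 17, again with an adjusted p of at most 0.0795.

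Several of these genes are neighbours. On chromosome 5 (GRCm38) Gabrg1 (70751047 to 70842617) and Gabra2 (70957597 to 71095849), both on the minus strand, lie 114.98 kb apart, followed by Gabra4 (71569749 to 71658308, minus strand) and Gabrb1 (71658113 to 72149037, plus strand), which overlap by 196 bases. Gabrg1, Gabra2 and Gabrb1 were all higher in Pmch than in Hcrt wells, while Gabra4 was not called (12.7 and 11.98 CPM). On chromosome 7 Gabrg3 (56716465 to 57387188, minus strand) lies 20.5 kb from Gabra5, and both were higher in GABA than in Hcrt wells. Gabrq is on the X chromosome (72825178 to 72842602, plus strand), near Gabra3 and Gabre. The 250 bases before the RefSeq start of 5 of the genes called in these comparisons (GRCm38.p6, on the gene's strand, 5′ to 3′) are shown so that neighbours can be compared. Capitals mark TAATTA, the core bound by many homeodomain factors, and the GC box GGGCGG or its complement CCGCCC, each searched on both strands.

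Gabrg1, chr5:70842618-70842867, minus strand: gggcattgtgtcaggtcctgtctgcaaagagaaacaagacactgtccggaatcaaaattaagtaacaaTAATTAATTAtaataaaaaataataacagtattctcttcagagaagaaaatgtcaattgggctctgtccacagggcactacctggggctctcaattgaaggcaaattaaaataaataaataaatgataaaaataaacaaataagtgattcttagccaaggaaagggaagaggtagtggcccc
Gabra2, chr5:71095850-71096099, minus strand: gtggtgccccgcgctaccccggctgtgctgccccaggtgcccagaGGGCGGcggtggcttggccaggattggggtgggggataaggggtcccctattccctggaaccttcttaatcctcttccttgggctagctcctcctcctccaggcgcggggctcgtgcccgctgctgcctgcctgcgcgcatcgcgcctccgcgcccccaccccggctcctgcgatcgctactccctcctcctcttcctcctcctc
Gabrg3, chr7:57387216-57387465, minus strand: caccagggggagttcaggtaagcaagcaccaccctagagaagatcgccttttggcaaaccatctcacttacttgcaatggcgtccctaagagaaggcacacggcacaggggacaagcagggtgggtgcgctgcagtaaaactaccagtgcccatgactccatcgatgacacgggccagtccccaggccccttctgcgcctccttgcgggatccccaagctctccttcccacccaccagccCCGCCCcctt
Gabra5, chr7:57510060-57510309, minus strand: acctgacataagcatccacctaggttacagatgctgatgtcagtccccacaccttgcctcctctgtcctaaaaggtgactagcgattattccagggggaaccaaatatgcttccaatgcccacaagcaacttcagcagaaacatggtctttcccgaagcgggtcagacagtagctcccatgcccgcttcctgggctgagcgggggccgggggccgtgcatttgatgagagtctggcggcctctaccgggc
Gabrq, chrX:72824928-72825177, plus strand: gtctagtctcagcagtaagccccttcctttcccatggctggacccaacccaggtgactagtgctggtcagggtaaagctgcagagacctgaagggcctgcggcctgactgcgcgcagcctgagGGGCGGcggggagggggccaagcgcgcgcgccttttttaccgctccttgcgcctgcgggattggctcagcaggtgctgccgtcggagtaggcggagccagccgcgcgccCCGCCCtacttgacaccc

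The windows of the chromosome 5 neighbours Gabrg1 and Gabra2 differ in make-up. The Gabrg1 window has 35.6% G and C bases, 1 CpG and 2 overlapping TAATTA matches, and the Gabra2 window has 70.0% G and C, 18 CpGs and 1 GC box. The windows of Gabrg3 and Gabra5 are closer to each other, with 60.4% and 56.4% G and C and 9 CpGs each, and Gabrg3 has 1 GC box where Gabra5 has neither motif. The Gabrq window has 67.2% G and C, 19 CpGs and 2 GC boxes. Over 32851 RefSeq windows of this length the median was 52.4% G and C and 6 CpGs, TAATTA was found in 4.84% and GGGCGG in 32.7%. A match describes these letters only, and 25 of the 27 genes had an entry in the RefSeq table.

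The remaining subunits were close to silent. Gabrd, the delta subunit of tonic GABA currents, had 15, 2, 3 and 0 UMIs in the Hcrt, Pmch, GABA and other classes, Gabre (epsilon) had 49, 0, 19 and 1, and Gabrp (pi) had 10, 0, 3 and 0. Of the rho subunits, which were first described in the retina, Gabrr2 had 33, 4, 0 and 0 UMIs and Gabrr3 had 1, 0, 1 and 0. Gabrr1 had 8 UMIs in 1065 Hcrt wells and 18 in 68 Pmch wells. It was too low for the filter, and without the filter it was called higher in Pmch wells (edgeR, adjusted p = 0.00577), where 2.66% of 35218 genes were called higher and 7.79% lower.

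**Figure D3:**
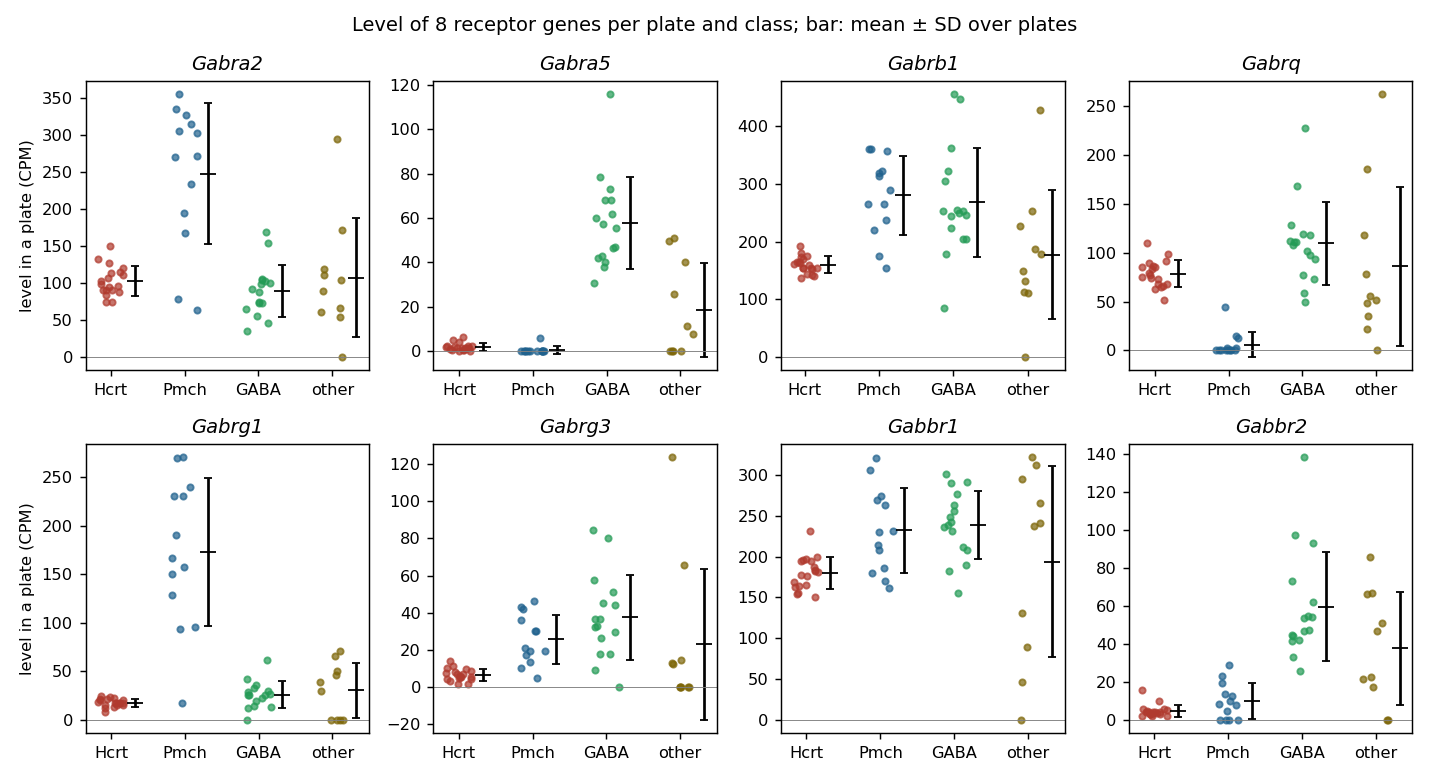
Level (CPM) of 8 receptor genes, each point being the summed UMIs of 1 class in 1 plate with at least 3 wells of it; the bar beside the points is the mean ± SD over plates. Gabra5 and Gabbr2 stand highest in the GABA class, Gabrg1 and Gabra2 in the Pmch class, and Gabrq is at or near 0 in most Pmch points.

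Single wells showed which subunits were detected together. To compare classes of different depth, each well was thinned to 18000 UMIs, which left 1003 Hcrt, 67 Pmch, 253 GABA and 56 other wells. Gabra2, Gabrb1 and Gabrg1 were found together in 52 of 67 Pmch wells (77.6%, exact 95% interval 65.8% to 86.9%) and in 129 of 1003 Hcrt wells (12.9%, 10.9% to 15.1%). The same set was found in 9.49% of GABA wells and 7.14% of other wells. Gabra2, Gabrb1 and Gabrq were found together in 34.9% of Hcrt wells (31.9% to 37.9%), 21.3% of GABA wells (16.5% to 26.9%), 14.3% of other wells and 4.48% of Pmch wells (0.933% to 12.5%). Gabra5, Gabrb1 and Gabrg3 were found together in 27 of 253 GABA wells (10.7%, 7.15% to 15.1%) and in 0.399% of Hcrt wells. They were found in 0 of 67 Pmch wells, which allows a share of up to 4.48% when 3 wells are taken as the limit (exact 95% upper bound 5.36%). In 0 of 56 other wells the same limit is 5.36% (exact upper bound 6.38%). These intervals cover counting error only, and wells of a plate are not replicates. Without thinning, the set with Gabrg1 was found in 83.8% of Pmch and 26.7% of Hcrt wells and the set with Gabrq in 10.3% and 59.9%. The set of Gabra5, Gabrb1 and Gabrg3 was then found in 12.2% of GABA, 1.13% of Hcrt, 4.41% of Pmch and 1.41% of other wells. Without plate 19, 52 thinned other wells remained, of which 7.69% held the set with Gabrg1, 15.4% the set with Gabrq and 0 the set with Gabra5 and Gabrg3.

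Within GABA wells the 2 main alpha subunits were found in different combinations. After thinning, 28.5% held Gabra2 without Gabra5, 21.7% held Gabra5 without Gabra2, 19.4% held both and 30.4% held neither. In Hcrt wells 69.3% held Gabra2 alone of the pair and 0.499% Gabra5 alone. A similar view of gamma and theta gave a gamma subunit (Gabrg1 or Gabrg3) without Gabrq in 77.6% of Pmch, 18.2% of GABA and 9.87% of Hcrt wells. Gabrq without either gamma was found in 2.99% of Pmch, 27.7% of GABA and 42.7% of Hcrt wells. Genes at a few UMIs per well are often missed at this depth, so a well without a UMI is not a well without the gene. In the blank wells, 64 labelled as ERCC only and 39 labelled Empty with fewer than 1000 genes, Gabra5, Gabrg1, Gabrg3 and Gabbr2 had 0 UMIs and Gabrq had 3.

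**Figure D4:**
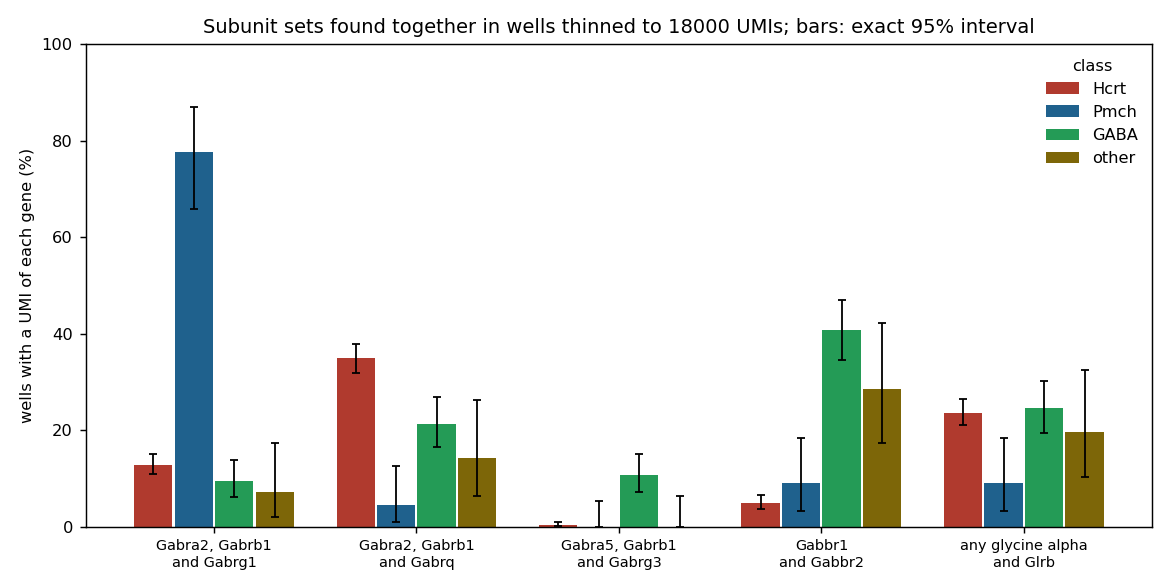
Wells (%) with at least 1 UMI of every gene of a set after thinning each well to 18000 UMIs, by class; bars start at 0 and error bars are exact 95% binomial intervals over wells. The set of Gabra2, Gabrb1 and Gabrg1 reaches 77.6% in Pmch wells, and Gabbr1 with Gabbr2 reaches 40.7% in GABA wells.

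The GABA-B subunits differed in their balance. Gabbr1 was at 180.5 ± 20.3 CPM in Hcrt wells and 239.00 ± 41.6 CPM in GABA wells of 16 plates, and this was not called by the fit. Gabbr2, without which Gabbr1 does not form a working receptor, was at 59.4 ± 28.7 CPM in GABA wells (lowest 25.7, median 50.3, highest 138) and at 4.80 ± 3.45 CPM in Hcrt wells (lowest 1.89, median 4.08, highest 15.5). Gabbr2 was higher in 16 of 16 plates without overlap, with a log2 fold change of 3.25 ± 0.29 (edgeR, adjusted p = 1.56e-13). Of the UMIs of both subunits, Gabbr2 took 20.3% ± 8.38 in GABA wells and 2.67% ± 1.84 in Hcrt wells, higher in 14 of 14 plates (permutation test, adjusted p = 0.00126). After thinning, both subunits were found in 40.7% of GABA wells (34.6% to 47.0%), 28.6% of other wells, 8.96% of Pmch wells and 4.99% of Hcrt wells, and in 30.8% of other wells without plate 19. Gabbr2 lies on chromosome 4 at 46662305 to 46991873, minus strand (GRCm38).

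In Pmch wells Gabbr1 rose slightly, from 185 ± 19.5 to 232 ± 51.9 CPM, higher in 11 of 13 plates (log2 fold change 0.34 ± 0.10, edgeR, adjusted p = 0.00578). Gabbr2 was at 9.87 ± 9.42 CPM there and 4.64 ± 3.44 CPM in Hcrt wells, with too few UMIs for the test. Its share was 4.32% ± 4.20 in Pmch and 2.40% ± 1.58 in Hcrt wells over 13 plates (permutation test, adjusted p = 0.287).

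The make-up of the glycine receptor alpha subunits differed in Pmch wells. Of these subunits, Glra2, the form known from immature neurons, gave 55.9% of 1816 alpha UMIs in Hcrt wells, Glra3 31.3% and Glra1, the adult spinal form, 12.7%. In GABA wells the shares were 44.8%, 32.7% and 22.5% of 462 UMIs, and in other wells 49.5%, 28.3% and 22.2% of 99. Glra4 had 2, 1, 0 and 0 UMIs in the Hcrt, Pmch, GABA and other classes. In Pmch wells 96.6% of 87 alpha UMIs were of Glra2, at 19.2 ± 24.6 CPM (median 6.38, with 5 of 13 plates at 0) against 19.5 ± 5.73 CPM (median 17.7) in Hcrt wells of the same plates.

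Glra3 was not detected in the Pmch class. It had 0 UMIs in 68 Pmch wells and 568 UMIs in 1065 Hcrt wells, at least 15.4-fold lower in Pmch wells when 3 UMIs over the class are taken as the limit. Against the 151 UMIs of the GABA class it was at least 23.8-fold lower. Every plate of the Pmch class was at 0, and the 13 Hcrt sums ran from 6.07 to 14.5 CPM with a median of 10.7, so the groups did not overlap. Glra1 had 2 UMIs in Pmch wells and 231 in Hcrt wells, a ratio of 9.41 (exact 95% interval 2.57 to 78.1, counting error only). Both genes were below the filter. Without it Glra3 (edgeR, adjusted p = 1.39e-10) and Glra1 (adjusted p = 6.52e-04) were called lower in Pmch wells. In GABA wells Glra1 was at 10.96 ± 6.42 CPM, against 3.63 ± 1.98 CPM in Hcrt wells, and it was called higher with at least 5 wells per plate and class (log2 fold change 1.24 ± 0.37, edgeR, adjusted p = 0.00692). The last 1000 bases of Glra1 overlap the gene Gm12236 on the opposite strand.

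Glrb, the subunit that ties glycine receptors to gephyrin, was at 138 ± 45.8 CPM in Pmch wells and 82.6 ± 10.5 CPM in Hcrt wells, higher in 11 of 13 plates (log2 fold change 0.72 ± 0.14, edgeR, adjusted p = 6.79e-05). In GABA wells it was at 130.1 ± 43.4 CPM and in Hcrt wells at 78.3 ± 15.3 CPM, higher in 16 of 16 plates, with a log2 fold change of 0.31 ± 0.11 (edgeR, adjusted p = 0.0230). That call was lost without plate 3 (0.25, adjusted p = 0.0876), and with spike-in totals as library size the change reversed to -0.42. A glycine alpha subunit was found together with Glrb in 23.6% of thinned Hcrt wells, 24.5% of GABA wells, 19.6% of other wells (21.2% without plate 19) and 8.96% of Pmch wells (3.36% to 18.5%).

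Gphn, the scaffold gene, was at 39.0 ± 15.0 CPM in GABA wells (lowest 17.8, median 38.8, highest 63.9) and 14.3 ± 4.45 CPM in Hcrt wells (lowest 7.25, median 13.05, highest 21.4). It was higher in 16 of 16 plates with overlapping ranges, and the log2 fold change was 1.08 ± 0.22 (edgeR, adjusted p = 6.24e-05). With spike-in totals the change of Gphn was 0.34 and not called (adjusted p = 0.169). In Pmch wells Gphn was at 27.9 ± 20.6 CPM and in Hcrt wells at 15.6 ± 3.52 CPM, which was not called.

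Gabarap, the protein first found bound to GABA-A receptors, and its relatives Gabarapl1 and Gabarapl2 carry receptors through the cell and also act in autophagy. Gabarap was at 462 ± 105.2 CPM in GABA wells and 517 ± 68.9 CPM in Hcrt wells, and the fit called it lower (log2 fold change -0.60 ± 0.07, edgeR, adjusted p = 2.78e-10), though it was lower in CPM in only 10 of 16 plates. Gabarapl2 was at 883 ± 135 and 998 ± 63.0 CPM, lower in 13 of 16 plates (log2 fold change -0.58 ± 0.06, edgeR, adjusted p = 5.73e-12). Gabarapl1 was not called, at 982 ± 175 CPM in GABA wells and 803 ± 129 CPM in Hcrt wells. Within the family its share was 42.2% ± 6.01 in GABA wells and 34.5% ± 3.72 in Hcrt wells, higher in 15 of 16 plates (permutation test, adjusted p = 0.00126). In Pmch wells none of the 3 was called, and the Gabarapl1 share was 36.4% ± 5.99 against 34.5% ± 4.10 (permutation test, adjusted p = 0.191).

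The other class held few wells, and its sums varied widely between plates. Against Hcrt wells 12 of the 27 genes were tested, and 0 were called higher and 2 lower. Of all 7554 genes tested, 0.702% were called higher and 6.27% lower. The lower genes were Gabarapl2 (747 ± 316 CPM against 1018 ± 58.3 CPM, log2 fold change -1.01 ± 0.25, edgeR, adjusted p = 0.00649) and Gabarap (388 ± 63.6 CPM against 504 ± 55.1 CPM, log2 fold change -0.82 ± 0.22, adjusted p = 0.0148). In plate 19, where the 4 wells held only 195 CPM of pan-neuronal genes, 23 of the 27 genes were at 0 and Gabarapl1 was at 38.9 CPM. Without plate 19, 14 of the 27 genes were tested and 4 were called. Over all 7607 genes tested there, 120 were called higher and 674 lower. Gabbr2 was called higher (log2 fold change 2.79 ± 0.64, edgeR, adjusted p = 6.39e-04), and Gabarapl1 (-0.45 ± 0.15, adjusted p = 0.0368), Gabarapl2 (-0.81) and Gabarap (-0.82) were called lower. The levels of Gabarapl2 and Gabarap in other wells were then 806 ± 271 and 384.0 ± 65.8 CPM. With neuronal wells only, Gabbr2 was again called higher (2.84 ± 0.63, edgeR, adjusted p = 5.49e-04), among 2.05% of 7382 genes called higher. With total UMIs or DESeq2's size factors as scaling, none of the 12 genes was called.

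Gabbr2 in the other class was at 37.7 ± 29.8 CPM over 10 plates (lowest 0, median 34.4, highest 85.8) and at 41.9 ± 28.3 CPM without plate 19, against 4.79 ± 3.96 CPM in Hcrt wells of the 10 plates. Its share of the GABA-B UMIs was 21.9% ± 11.8, against 2.75% ± 2.12 in Hcrt wells, higher in 7 of 7 plates (exact sign-flip permutation test, two-sided, p = 0.0156, adjusted p = 0.0398). Leaving out any of those 7 plates ended the call, with an adjusted p of 0.0677 to 0.0795, where the smallest p that 6 plates allow is 0.0313. The alpha shares could be compared in only 5 plates, where the smallest p the test allows is 0.0625. In those plates Gabra5 took 17.7% ± 13.8 in other wells and 1.02% ± 0.796 in Hcrt wells, and Gabra2 took 67.0% ± 15.5 and 86.0% ± 4.68.

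Between the GABA and other classes 10 of the 27 genes were tested and 0 were called by edgeR, with 1 at an unadjusted p under 0.05. Over all 4633 genes tested, 0.648% were called higher and 0.130% lower. That gene was Gabra5, at 50.5 ± 15.1 CPM in GABA wells and 18.6 ± 21.3 CPM in other wells, higher in 10 of 10 plates (log2 fold change 1.42 ± 0.54, p = 0.0156, adjusted p = 0.411). Without plate 19 Gabra5 was at 20.7 ± 21.5 CPM in other wells, and the log2 fold change was 1.24 ± 0.54 (p = 0.0277, adjusted p = 0.469). DESeq2 called 0 of the 10. The fit over all 4 classes together called 2 of 15 tested, Gabrb1 (0.64 ± 0.20) and Gabarapl1 (0.53 ± 0.15). Over all 8094 genes of that fit, 325 were called higher and 156 lower. Gabbr2 took the same share of GABA-B UMIs in both classes within the spread, 22.1% ± 10.4 and 21.9% ± 11.8 over 7 plates.

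Lists of genes that work with these receptors were also read. The counts of each list stand beside the shares called over all genes tested. Those were 17.2% higher and 21.8% lower between GABA and Hcrt wells, and 13.2% and 17.5% between Pmch and Hcrt wells. Of 19 genes for the inhibitory synapse scaffold and GABA-A receptor trafficking, 16 were tested between GABA and Hcrt wells, with 6 higher and 3 lower and a median log2 fold change of 0.13. Shisa7, an auxiliary subunit of GABA-A receptors, was higher (2.11 ± 0.36, 16 of 16 plates), as were Nsf, an ATPase of membrane fusion that also binds GABARAP (1.76 ± 0.09), and Igsf9b, an adhesion protein of inhibitory synapses (1.56 ± 0.24). In Pmch wells 13 genes of this list were tested, with 4 higher and 3 lower and a median of -0.15. Among these, Hap1 (-1.60 ± 0.08), which takes part in returning GABA-A receptors to the membrane, and Iqsec3 (-1.20 ± 0.27), which binds gephyrin, were lower, and Plcl1, which binds GABARAP and beta subunits, was higher (1.26 ± 0.38).

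Of 13 genes for GABA-B auxiliary subunits and effectors, 8 were tested between GABA and Hcrt wells, with 3 higher and 3 lower and a median of -0.03. Kctd8, an auxiliary GABA-B subunit, was at 51.4 CPM in GABA wells and 1.15 CPM in Hcrt wells (log2 fold change 4.88 ± 0.43, 15 of 16 plates), and Kcnj3, a potassium channel opened by GABA-B receptors, was also higher (1.07 ± 0.30). In Pmch wells 6 were tested, with 2 higher and 2 lower and a median of -0.30. Of 11 genes for chloride and bicarbonate handling, 8 were tested between GABA and Hcrt wells and 8 between Pmch and Hcrt wells. In GABA wells 4 were higher and 1 lower, with a median of 0.51; the lower gene was Slc4a8, a bicarbonate exchanger (-1.31 ± 0.10). In Pmch wells 2 were higher and 2 lower, with a median of -0.33. As for every list, the shares over all genes were 17.2% higher and 21.8% lower in GABA wells and 13.2% and 17.5% in Pmch wells. Slc12a5, the chloride exporter KCC2 that keeps GABA inhibitory, was at 70.7 ± 35.7 CPM in Pmch wells and 210.2 ± 27.8 CPM in Hcrt wells, lower in 13 of 13 plates (-1.62 ± 0.16, edgeR, adjusted p = 7.22e-11). Slc12a2, the chloride importer NKCC1, was at 23.4 ± 9.70 and 11.95 ± 5.82 CPM, higher in 11 of 13 plates (1.01 ± 0.33, edgeR, adjusted p = 0.0189), and Slc4a8 was lower (-1.57 ± 0.12).

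Of 15 genes for ATG8 conjugation and autophagy, 14 were tested in both comparisons. In GABA wells 2 were higher, with Ulk1, a kinase that starts autophagy, at 1.09 ± 0.31, and 2 were lower. In Pmch wells 1 was higher and 2 were lower, with Nbr1, an autophagy receptor, at -1.09 ± 0.33. Over all genes, 17.2% were called higher and 21.8% lower in GABA wells, and 13.2% and 17.5% in Pmch wells. Of 7 genes for glycine handling, 2 were tested in GABA wells and 1 in Pmch wells, and 0 were called by edgeR, with 0 and 1 at an unadjusted p under 0.05. In the other class the lists gave Nsf higher (1.16 ± 0.29) and Hap1 (-1.44 ± 0.40), Gng2, a G-protein gamma subunit (-1.08 ± 0.32), and Slc4a8 (-1.54 ± 0.27) lower than in Hcrt wells. Without plate 19 these 4 were called in the same direction, at 1.42 for Nsf, -1.14 for Hap1, -0.84 for Gng2 and -1.40 for Slc4a8 (edgeR, adjusted p of at most 0.0192). Igsf9b was called higher only then (1.81, edgeR, adjusted p = 0.0253). Map1lc3a (-0.52, adjusted p = 0.0347) and Sqstm1 (-0.41, adjusted p = 0.0493), both of the autophagy list, were called lower only then. Between GABA and other wells no gene of the 5 lists was called.

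The genes whose levels followed Gabra5 most closely over the 58 plate and class sums, on a scale of log2(CPM + 1), were Asb4 (Pearson r = 0.84), Acvr1c (0.84) and Cdh4 (0.83). The sums share plates, libraries and class gates, so these values only describe likeness.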

How the data were processed

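The deposited table holds raw counts per gene and well, used as UMI counts. Per the submitters' processing notes, the authors used bcl2fastq 2.20, cutadapt 2.1.0, STAR and STARsolo 2.7.5c, Seurat 2.3.4, R 3.4.3 and GRCm38; how UMIs were collapsed, the annotation release and the use of strand are not given in the sources used here. The well annotation, as deposited by the authors, gave each well's content, its detected genes and the percent of its counts on ERCC spike-ins, and wells labelled LHA were used. A well held 1 cell, so the plate, not the well, was the replicate.

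Within each plate the counts of all wells of a class were added up, and edgeR 4.0.16 was run on these sums (limma 3.58.1, R 4.3.3; TMM, filterByExpr, robust quasi-likelihood fit, plate as block). Standard errors were derived from the log2 fold change and its F statistic. Shares of a family needed 20 family UMIs in each class and plate and were tested by flipping signs over plates (exact below 10 plates, 100000 flips otherwise, two-sided), with adjustment over all 28 shares and comparisons. Wells were thinned to 18000 UMIs for detection, and intervals are exact (Clopper-Pearson). The tests were checked on simulated counts. Alternatives were other scalings, DESeq2 1.42.0, filters, gates, thinning, a joint fit and leaving out each plate. Doublets were not called, since cells were picked by hand, and 3 wells with both peptides were left out.

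The 27 genes, the lists and the gates were chosen with earlier results of these data known, and the Gabra2 and Gabra5 pairs, the gamma and theta pairs and the printed promoters were chosen after values had been seen, as were the values without plate 19 for the list genes, levels and shares of the other class. All 27 genes are named. From each list, up to 4 genes per comparison with an adjusted p under 0.05, a log2 change of at least 1 and at least 10 CPM are named. List genes of the other class called only without plate 19 are named as well. A list gene that met this rule is not reported here. Positions come from GENCODE on GRCm38, promoters from RefSeq on GRCm38.p6.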

Additional observations from a re-analysis of the deposited data

Results flagged for a closer look

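In the class of wells with neither peptide nor Gad genes, single plates stood apart by Dixon's test in 5 of 20 groups tested. The nominal rate of about 1 in 20 does not hold here, since the groups share plates and many sums were at 0. The Hcrt, Pmch and GABA classes had too many plates for this test and were not examined. Plate 19 was low for Gabarapl1, at 38.9 CPM against 495 CPM in the nearest plate, and its 4 wells held 195 CPM of pan-neuronal genes. Plate 4 was high for 3 genes in its 4 wells: Gabrg3 at 124 CPM (nearest plate 65.7), Glra3 at 85.3 CPM (nearest 32.8) and Gabra4 at 69.8 CPM (nearest 32.8), which are 16, 11 and 9 UMIs. Gabre stood out in plate 8 at 4.28 CPM, which is 1 UMI where every other plate was at 0.

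Wells outside the comparisons also held UMIs of the receptor and anchor genes. A single well labelled Empty had at least 1000 genes, 100707 UMIs and 339 UMIs of the 27 genes, above the 30 UMIs in the 39 Empty wells with fewer genes. The 68 wells labelled qRNA, whose content is not given in the sources used here, held a median of 14.5 UMIs of the 27 genes, led by Gabarap at 550.2 CPM. Summed over the 27 genes they held 846 CPM, against 3122 CPM in the classed wells.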

How the results depend on the processing

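Between the GABA and Hcrt classes 9 of the 27 genes were called, 14 with spike-in totals as library size (where Gabrb1 reversed to -0.44 and Glrb to -0.42) and 8 to 11 when each plate was left out. Between the Pmch and Hcrt classes 7 were called, 11 with spike-in totals, 4 after thinning (fewer genes tested) and 7 to 8 without each plate. Between the other and Hcrt classes 2 were called, 0 with total UMIs, DESeq2's size factors or thinning, 1 with the 2% peptide gate, 4 without the filter, 5 in the joint fit, 8 with spike-in totals and 2 to 4 without each plate (4 without plate 19). Between the GABA and other classes 0 were called, 2 in the joint fit and 0 to 0 without each plate. Why the counts differ between settings was not tested, also where a smaller number of plates or genes tested is named. Without the replicate block the counts were 9, 8, 2 and 0.

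Over all genes, calls between the GABA and Hcrt classes were 1594 higher and 2021 lower, 3984 and 855 with total UMIs, and 404 and 6477 with spike-in totals. For Pmch against Hcrt they were 1026 and 1362, 3257 and 448 with spike-in totals, and 610 and 707 of 4472 genes after thinning. For the other class they were 53 and 474, 162 and 165 with total UMIs, 98 and 239 with DESeq2's size factors, and 20 and 3905 with spike-in totals. They were 238 and 890 of 31193 genes without the filter, 476 and 1048 of 8094 in the joint fit, and 120 and 674 of 7607 without plate 19. For GABA against other they were 30 and 6 of 4633, and 325 and 156 of 8094 in the joint fit.

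Of 7 shares between GABA and Hcrt wells 6 were called, 1 with the 2% gate (which leaves wells between 0.2% and 2% of a peptide in no class, and so fewer plates) and 6 to 6 without each plate. Of the Pmch shares 4 were called, 0 with at least 5 wells, 1 with the 0.5% gate, 2 with the 2% gate, 0 after thinning and 2 to 4 without each plate. Of the other-class shares 1 was called, 0 with at least 5 wells, the 0.5% gate, the 2% gate, 10 Gad UMIs, thinning or 50 family UMIs, and 0 to 2 without each plate. The single log2 fold changes were also followed over the settings other than leaving out each plate. There 226 kept their direction and call, 21 lost the call and 2 reversed. Some of these settings also had fewer plates. Between GABA and Hcrt wells there were 14 with at least 5 wells, 10 with the 2% gate and 13 after thinning, against 16. Depth limits the genes at a few UMIs per plate, and 11 of the 27 were not tested even between GABA and Hcrt wells.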
